A study of Mus musculus with 2 samples.

Results

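The 27 genes described here encode the enzymes that build cholesterol and its isoprenoid by-products, together with the proteins that hold, escort or answer to SREBP2, the transcription factor that controls them. They were taken by name from a list of pathway genes, a list drawn up with earlier results of these data known. A named probe set was found for 25 of the 27, among 19505 named genes on the array, and each of the 25 had a single probe set. The expression of Acat2 and Tm7sf2 was not analysed here, but their promoters were searched.

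The RNA came from B16F10, a pigmented mouse melanoma line. Cells were transfected with a plasmid encoding GFP or NRF3 (the product of Nfe2l3) plus a vector that confers puromycin resistance, and puromycin selection followed. Both groups received forskolin, an activator of adenylate cyclase, for 5 days before RNA extraction, so the forskolin response itself was not compared. Each group had 1 array. There is no replicate, no error and no test for any difference given here, and every comparison is between 2 RNA samples. The labels do not give the promoter that drove the plasmids, the species of the NRF3 coding sequence, or whether the stable cells were 1 clone or many.

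The mevalonate pathway turns acetyl-CoA into mevalonate and then into activated isoprene units, which are joined into farnesyl diphosphate. From there the carbon goes to squalene, lanosterol and cholesterol, or to geranylgeranyl groups, ubiquinone and dolichol. SREBP2 is made as a membrane protein of the endoplasmic reticulum. When sterols are scarce, SCAP escorts it to the Golgi, where proteases release its active part, and INSIG proteins hold the pair back when sterols are plentiful. NRF3, like SREBP2, is anchored in the endoplasmic reticulum before it acts in the nucleus.

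Values are log2 RMA expression values, and a difference is the NRF3 value minus the GFP value. Genes whose higher value was at least 5.89, the median over all named probe sets, count as detected here, and there were 10162 of them. All 25 measured members were detected, with values between 6.67 and 14.80. As a yardstick for dim signal, the upper quartile of the 5222 control rows named neg was 7.52 for GFP and 7.85 for NRF3. On both arrays 23 of the 25 members lay above these levels. The exceptions were Mvk and Mvd, so the size of either difference is limited by background.

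Nfe2l3 read 6.04 in GFP cells and 10.15 in NRF3 cells. The GFP value lay under the median of the neg rows, 6.12, so the array shows the gene as higher in the library labelled NRF3 without measuring by how much. Melanocyte markers were present, with 10 of 10 detected. Of the 6 leukocyte, 7 fibroblast and endothelial, and 9 epithelial and hepatocyte markers with a named probe set, 0 reached the floor. Over all detected genes the median difference was -0.07, with quartiles of -0.55 and 0.39. With each array centred on its median, all differences moved up by 0.13, and the share of higher genes among those past 1.5-fold went from 41.9% to 53.5%.

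In the NRF3 cells 10 of the 25 measured members were at least 1.5-fold higher and 1 was at least 1.5-fold lower. Among all detected genes, 17.0% were that much higher and 23.6% that much lower, so the members' share of 40.0% higher lay above the background and their share lower below it. At 2-fold the counts were 5 higher and 1 lower, where all detected genes gave 6.75% and 11.0%. The median difference of the members was 0.47. After median centring 13 members were at least 1.5-fold higher, the additions being Lss, Nsdhl and Stard4, and 21.8% of all detected genes were. Of the 10 higher members, 5 act between lanosterol and cholesterol and 3 in the mevalonate steps, and the others are Fdps and Insig1. The genes for the 3 enzymes that make squalene and lanosterol stayed within 1.5-fold, as did 6038 of the 10162 detected genes. Pmvk and Ebp, at 0.61 and 0.63, lay just past the 1.5-fold limit of 0.58, and Stard4 and Nsdhl, at 0.53 and 0.49, just short of it.

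**Figure D1:**
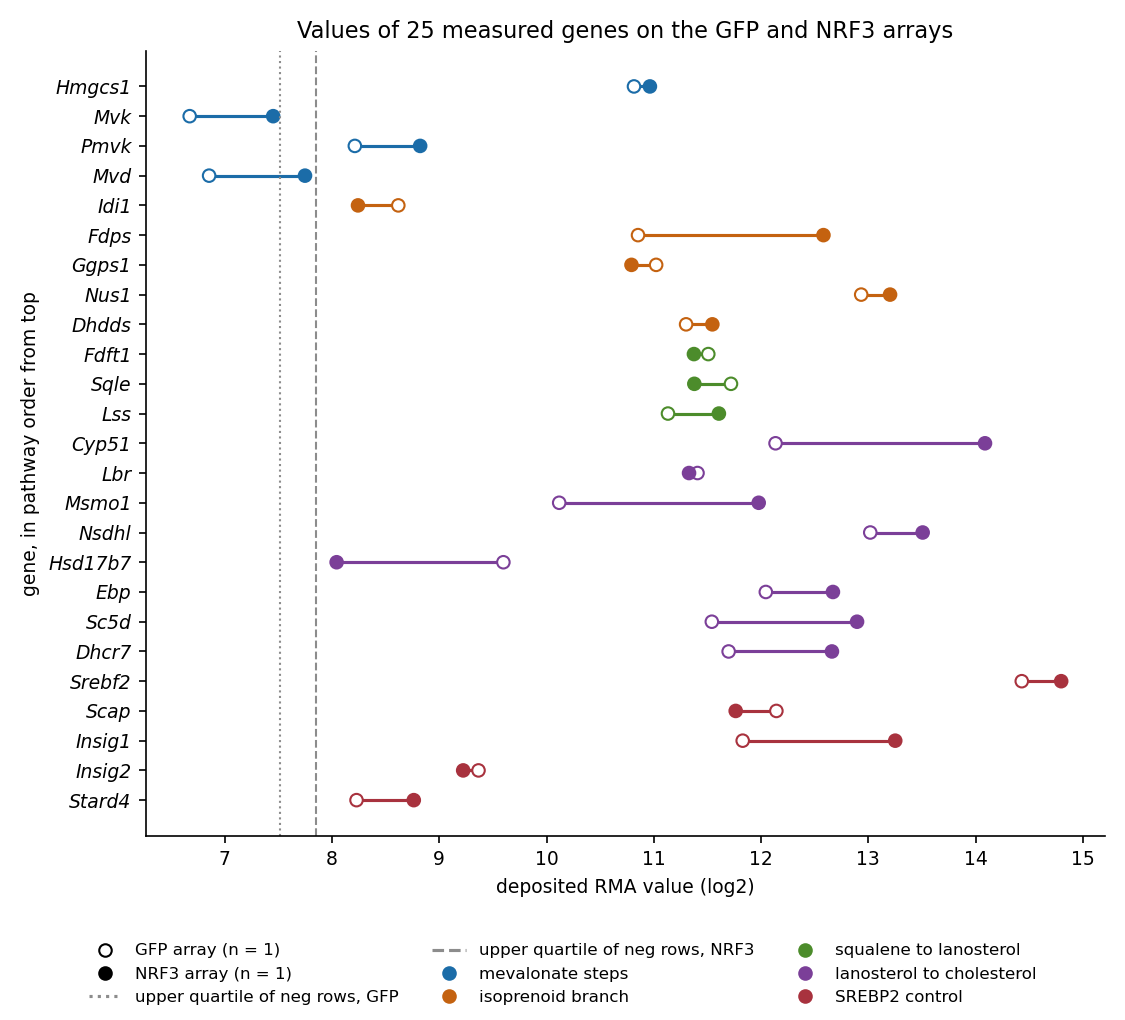
Deposited log2 RMA values of the 25 measured genes, in pathway order from the top, with the GFP array as open and the NRF3 array as filled circles (n = 1 each). The widest gaps are those of Cyp51, Msmo1, Fdps, Hsd17b7, Insig1 and Sc5d, and the Mvk and Mvd values lie at the left, below the dashed level of 7.85.

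The promoters of 5 members are shown before their values, because they span the range of differences: Cyp51, Msmo1 and Insig1 were higher, Hmgcs1 hardly differed and Hsd17b7 was lower. SREBP2 binds weakly on its own and works with NF-Y, which binds the letters CCAAT, and with Sp1, which binds GC boxes. The sequences are the 250 bases before the annotated transcription start, read 5′ to 3′ along the gene's own strand, from RefSeq on GRCm38.p6. Capitals mark CCAAT or its reverse ATTGG, and, in Hmgcs1, the 9 letters that match the sterol regulatory pattern TCACNCCAC. The stretches are chr13:119690101-119690350 on the plus strand for Hmgcs1, chr5:4104698-4104947 on the minus strand for Cyp51, chr8:64733579-64733828 on the minus strand for Msmo1, chr1:169969206-169969455 on the minus strand for Hsd17b7 and chr5:28071162-28071411 on the plus strand for Insig1.

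Hmgcs1: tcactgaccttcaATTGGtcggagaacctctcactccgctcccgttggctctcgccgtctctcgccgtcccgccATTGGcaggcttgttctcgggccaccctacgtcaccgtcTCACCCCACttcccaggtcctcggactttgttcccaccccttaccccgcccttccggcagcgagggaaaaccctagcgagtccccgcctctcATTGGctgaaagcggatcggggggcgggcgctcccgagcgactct
Cyp51: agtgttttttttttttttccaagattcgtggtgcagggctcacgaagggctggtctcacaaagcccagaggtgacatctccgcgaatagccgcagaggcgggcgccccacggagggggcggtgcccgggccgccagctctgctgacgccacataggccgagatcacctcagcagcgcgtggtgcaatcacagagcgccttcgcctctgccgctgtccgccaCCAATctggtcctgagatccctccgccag
Msmo1: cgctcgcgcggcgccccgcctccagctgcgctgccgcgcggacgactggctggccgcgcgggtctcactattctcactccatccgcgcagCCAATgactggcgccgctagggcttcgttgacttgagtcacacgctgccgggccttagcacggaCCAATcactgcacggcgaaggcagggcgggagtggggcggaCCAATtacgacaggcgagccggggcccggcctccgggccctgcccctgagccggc
Hsd17b7: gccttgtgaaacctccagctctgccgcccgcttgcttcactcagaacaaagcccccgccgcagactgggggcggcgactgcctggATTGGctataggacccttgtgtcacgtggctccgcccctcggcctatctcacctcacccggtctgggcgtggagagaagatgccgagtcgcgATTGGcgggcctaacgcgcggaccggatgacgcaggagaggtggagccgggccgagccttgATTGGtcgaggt
Insig1: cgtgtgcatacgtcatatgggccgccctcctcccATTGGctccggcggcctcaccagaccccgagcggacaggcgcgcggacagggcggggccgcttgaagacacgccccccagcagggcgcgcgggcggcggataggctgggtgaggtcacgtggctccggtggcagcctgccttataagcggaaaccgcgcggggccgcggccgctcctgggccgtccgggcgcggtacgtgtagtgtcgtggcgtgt

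Promoter windows of 300 bases, from 250 before to 50 after the start, were found for 23 of the 27 genes, and 4 of these had several starts. CCAAT on either strand was present in a window of 21 of the 23 genes, or 91.3%. It was present in 41.1% of all 27025 genes with windows, and in 44.2% of the 8387 genes that were also detected on the array. Of the 46 matches, 27 began within the 100 bases before the start. The letters did not separate genes that differed from genes that did not: all 9 members with a window that were at least 1.5-fold higher held CCAAT, and so did 11 of the 12 other measured members with a window. Scap was the exception. Hsd17b7, the 1 member that was lower, held 3 CCAAT matches, as did Msmo1.

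The GC box GGGCGG was present in 21 of the 23 genes, against 69.2% of detected genes. The sterol regulatory pattern TCACNCCAC was matched in full by Hmgcs1 alone of the 23, as TCACCCCAC with its first base 137 bases before the start, against 1.37% of detected genes. With up to 1 mismatch allowed, a looser search added after the strict one, 10 of the 23 genes had a match, against 29.0% of detected genes. The looser matches were in Acat2, Hmgcs1, Cyp51, Msmo1, Nsdhl, Hsd17b7, Dhcr7, Srebf2, Insig1 and Insig2. SREBP2 sites vary in sequence, so a window without these letters says nothing of binding.

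NRF3 and its relatives bind antioxidant response elements. The core searched here, TGACNNNGC, was present in Mvk, Pmvk, Dhcr7 and Hsd17b7, 4 of 23 genes or 17.4%, against 16.5% of detected genes. The E-box CACGTG, read by MITF and TFE factors among others, was present in Dhdds, Hsd17b7, Sc5d, Dhcr7, Scap and Insig1, 26.1% against 11.8% of detected genes. The antioxidant core was present in 3 of the 9 higher members with a window and in 1 of the 12 other measured members, and the E-box in 3 of 9 and 3 of 12. Pmvk held the antioxidant core only at start 2 of 2 and Dhcr7 only at start 3 of 3, so more bases were searched for them. The difference of Mvk is limited by background. No match was tested for function. Where matches of different patterns overlapped, each was counted.

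**Figure D2:**
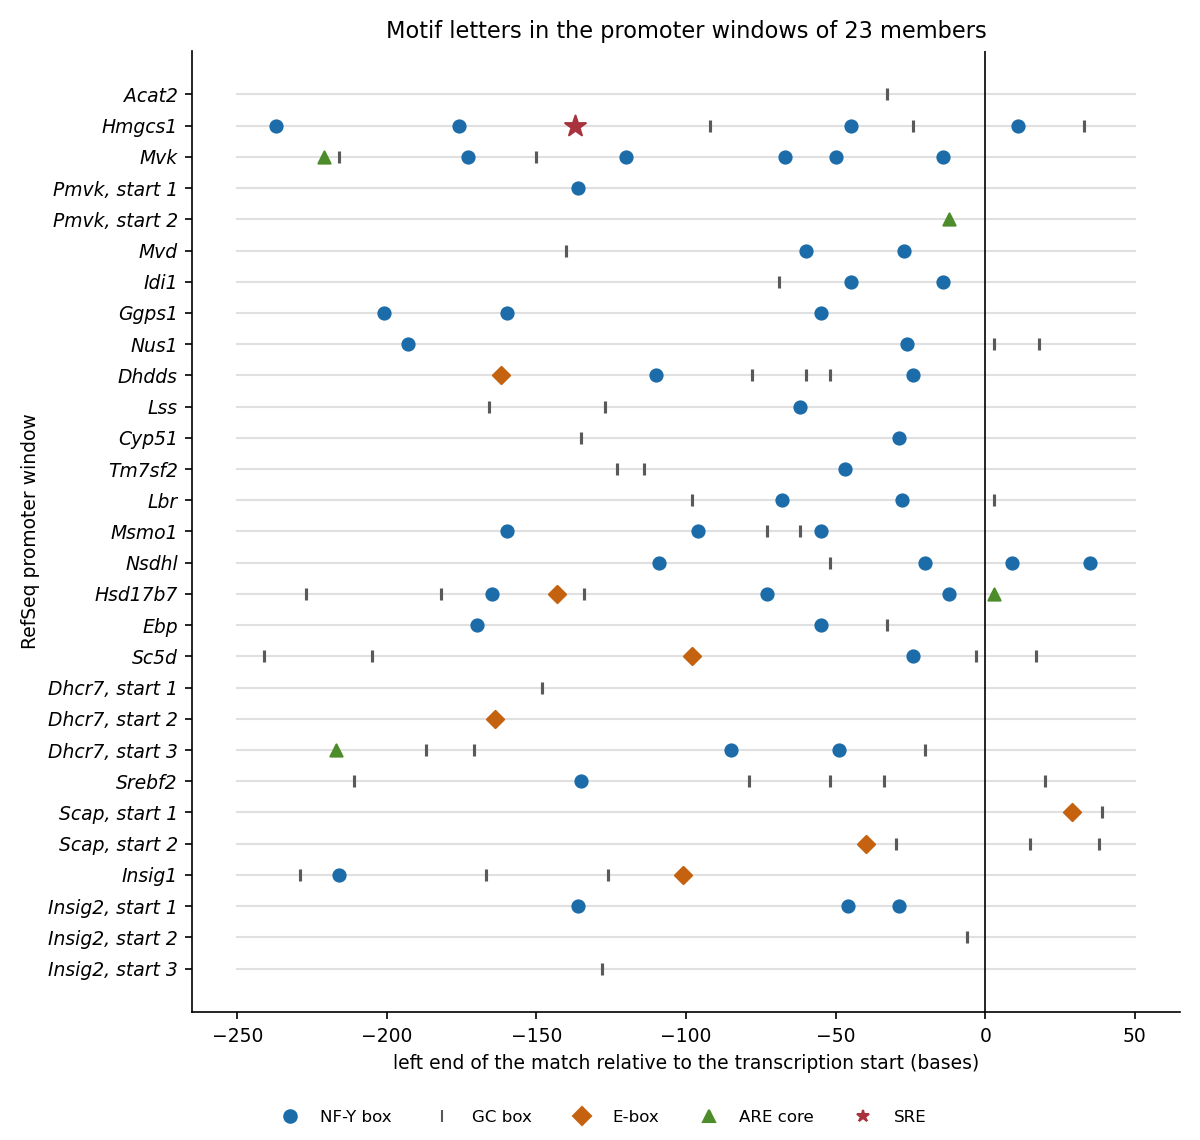
Positions of motif letters in each RefSeq promoter window of the 23 members with one, in bases from the transcription start at 0. NF-Y box stands for CCAAT, GC box for GGGCGG, E-box for CACGTG, ARE core for TGACNNNGC and SRE for TCACNCCAC, each on either strand. Blue circles appear in windows of 21 genes, mostly within the 100 bases before the start, and the single star is the full sterol regulatory match of Hmgcs1.

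Of the listed enzymes of the mevalonate steps, 4 were measured. Hmgcs1, the cytosolic HMG-CoA synthase, read 10.82 for GFP and 10.96 for NRF3, a difference of 0.15. Mvk, mevalonate kinase, read 6.67 and 7.45, a difference of 0.78. Pmvk, which adds the next phosphate, read 8.21 and 8.82, a difference of 0.61. Mvd, the decarboxylase that yields isopentenyl diphosphate, read 6.86 and 7.75, a difference of 0.89.

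All 4 had differences above 0, as did 45.8% of all detected genes. Of the 4, 3 were at least 1.5-fold higher, where 17.0% of all detected genes were. The median of the 4 was 0.69, but this group had the dimmest members. Mvk and Mvd lay under the upper quartile of the neg rows on both arrays, and the median of the other pair, Hmgcs1 and Pmvk, was 0.38. Mvd lies on chromosome 8, where the 54 genes of its block of detected neighbours had a median of 0.54, and its difference from that block was 0.36. Relative to their own blocks Mvk and Pmvk were at 0.52 and 0.43, also short of the 1.5-fold limit, and Hmgcs1 turned to -0.12. The part of these neighbouring genes in the differences was not tested.

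The isoprenoid branch held 1 large difference among 5 genes. By the 1.5-fold rule 1 of the 5 was higher and 0 were lower, where all detected genes gave 17.0% and 23.6%. The count of higher genes in this branch thus lay near the background. Fdps, the farnesyl diphosphate synthase at the branch point of the pathway, read 10.85 for GFP and 12.58 for NRF3. That is 3.31-fold, or 1.73 on the log2 scale, and only 1.16% of detected genes had a larger difference. The 500 detected genes nearest to Fdps in mean level had quartiles of -0.50 and 0.43.

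Idi1 and Ggps1, the genes for the enzymes on either side of Fdps, had differences below 0, as did 5507 of the 10162 detected genes. Both lay within 1.5-fold, and median centring put them at -0.25 and -0.10. Idi1, the isomerase that feeds it, read 8.62 and 8.24, a difference of -0.38. Ggps1, which lengthens farnesyl to geranylgeranyl diphosphate for protein prenylation, read 11.02 and 10.79, a difference of -0.23. Nus1 and Dhdds encode the subunits of the enzyme that makes the long chains of dolichol.

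Nus1 read 12.93 and 13.20, a difference of 0.27, and Dhdds read 11.30 and 11.55, a difference of 0.24. The subunit genes thus differed by a similar amount in the deposited values, both within 1.5-fold, but not relative to their blocks. Nus1 lay in a block with a median of -0.07 and was at 0.34 relative to it. Dhdds lay in a block of neighbours with a median of -0.50, and relative to that block it was at 0.74. The median of the branch was 0.24.

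All 3 genes for the steps from farnesyl diphosphate to lanosterol lay within 1.5-fold, as did 6038 of the 10162 detected genes. Fdft1, squalene synthase, read 11.51 for GFP and 11.37 for NRF3, a difference of -0.13. Sqle, squalene epoxidase and a step of flux control, read 11.72 and 11.38, a difference of -0.34. Lss, which closes the rings to give lanosterol, read 11.13 and 11.61, a difference of 0.47.

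The sign thus differed among 3 consecutive enzymes, all within 1.5-fold, and their median was -0.13. With median centring both Fdft1 and this median were at -0.01. Lss passed 1.5-fold only after median centring, at 0.60, or relative to its block, at 0.78. Fdps and Fdft1, whose enzymes act one after the other, differed from each other by 1.86 in their log2 differences.

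The steps from lanosterol to cholesterol held the largest differences of the pathway. Of the 8 measured genes 5 were at least 1.5-fold higher and 1 lower, with a median of 0.79. These are 62.5% and 12.5%, where all detected genes gave 17.0% and 23.6%. Cyp51, the cytochrome P450 that removes the first methyl group from lanosterol, read 12.13 for GFP and 14.09 for NRF3. That is 3.87-fold, or 1.95 on the log2 scale, rank 66 of 10162 detected genes. Set among the 500 detected genes nearest in mean level, with quartiles of -0.45 and 0.40, it had rank 3. Lbr, a nuclear envelope protein that also works as the sterol reductase of the next step, read 11.41 and 11.33. Its difference of -0.08 turned to 0.05 with median centring, and to 0.55 relative to its block on chromosome 1, whose median was -0.63.

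The next enzymes, Msmo1, Nsdhl and Hsd17b7, act together to remove the remaining methyl groups from the sterol ring, and their genes went in different directions. Msmo1, the oxygenase, read 10.12 for GFP and 11.98 for NRF3, 3.63-fold or 1.86 on the log2 scale. Nsdhl, the dehydrogenase that takes off the carbon, read 13.02 and 13.51, a difference of 0.49. Hsd17b7, the ketone reductase that completes the reaction, read 9.60 and 8.04, a difference of -1.55, or 2.94-fold lower.

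The log2 differences of Msmo1 and Hsd17b7 lay 3.41 apart. Both genes lie on chromosomes whose detected genes had medians away from 0. The 549 on chromosome 8, with Msmo1, had a median of 0.56, and the 552 on chromosome 1, with Hsd17b7, a median of -0.51. Chromosome 8 was uneven along its length, with a median of -0.13 in one block and 1.03 in another. The blocks that hold Msmo1 and Hsd17b7 had medians of 0.16 and -0.38. Relative to these blocks Msmo1 was at 1.70 and Hsd17b7 at -1.17, so both stayed past 1.5-fold and lay 2.87 apart. Hsd17b7 stood lower than 96.2% of detected genes. Its NRF3 value of 8.04 lay close to the upper quartile of the neg rows, 7.85.

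The 3 late enzymes Ebp, Sc5d and Dhcr7 were all higher. Ebp, the sterol isomerase, read 12.04 for GFP and 12.67 for NRF3, a difference of 0.63. Sc5d, the sterol desaturase, read 11.54 and 12.89, 2.56-fold or 1.35 on the log2 scale. Dhcr7, the reductase that yields cholesterol, read 11.70 and 12.66, 1.95-fold or 0.96 on the log2 scale.

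Each passed 1.5-fold under all 3 other scalings of the arrays and relative to its block, at 0.78 for Ebp, 1.13 for Sc5d and 0.91 for Dhcr7. They lie on chromosomes X, 9 and 7, in blocks with medians of -0.16, 0.23 and 0.05. All had values above 11 on both arrays, far from the level of the neg rows.

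**Figure D3:**
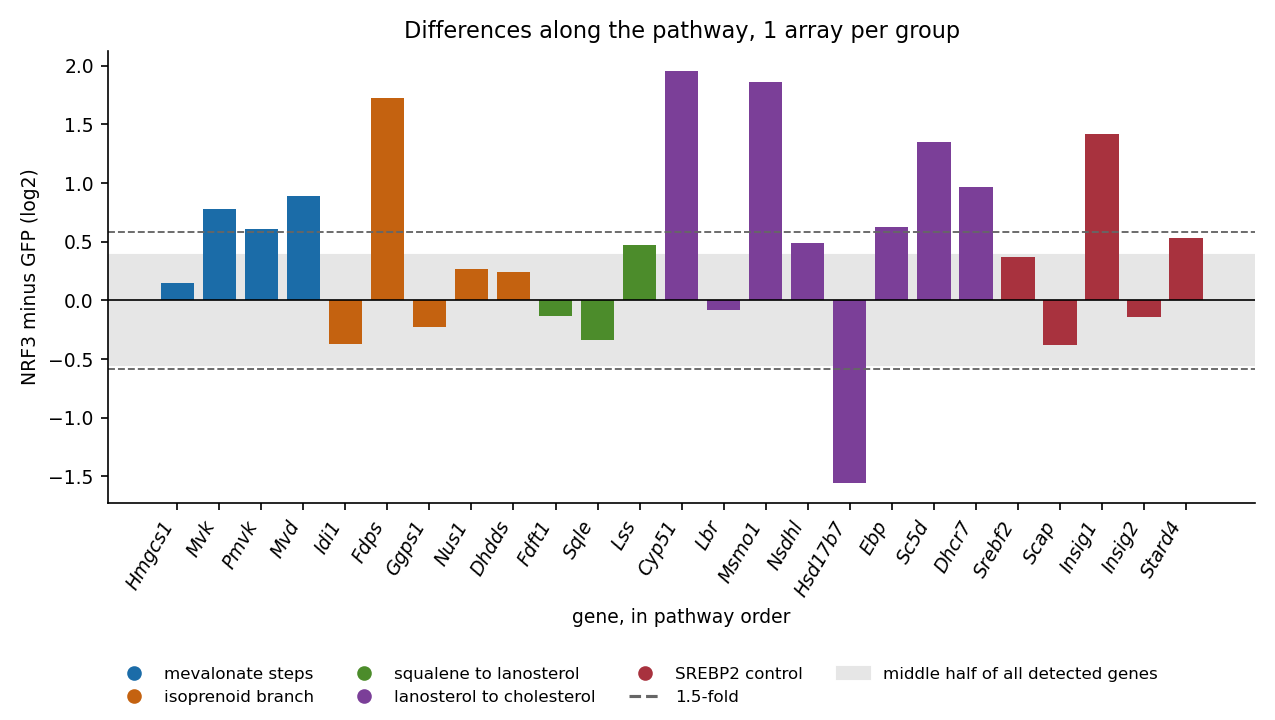
Difference of each measured gene, NRF3 minus GFP on the log2 scale, in pathway order, with dashed lines at 1.5-fold and a grey band between the quartiles of all detected genes, -0.55 and 0.39. Bars rise past the line at 3 mevalonate genes, Fdps, 5 genes after lanosterol and Insig1, the 3 bars from squalene to lanosterol stay inside the lines, and Hsd17b7 points down to -1.55.

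Among the 5 genes that control SREBP2, Insig1 alone was at least 1.5-fold higher and 0 were as much lower. All detected genes gave 17.0% and 23.6%, so 1 higher gene among these 5 lay near the background. Srebf2, which encodes SREBP2 itself, read 14.43 for GFP and 14.80 for NRF3, a difference of 0.37. Scap, the escort protein, read 12.14 and 11.76, a difference of -0.38. Stard4, a carrier of cholesterol inside the cell, read 8.23 and 8.76, a difference of 0.53, which passed 1.5-fold under the 3 other scalings, at 0.66 to 0.71. The median of the 5 control genes was 0.37, and relative to their blocks 0.60.

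The INSIG genes differed from each other. Insig1, a retention protein whose gene is itself a well-known SREBP target, read 11.83 for GFP and 13.25 for NRF3, 2.68-fold or 1.42 on the log2 scale. Only 2.37% of detected genes had a larger difference. Insig2, the retention protein whose gene responds less to SREBP in many cells, read 9.37 and 9.22, a difference of -0.14.

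The gap between the INSIG differences was 1.56. Insig2 lies on chromosome 1, in a block with a median of -0.66, and relative to that block it was at 0.52. Insig1 lay in a block with a median of 0.02 and was at 1.40 relative to it, so the gap narrowed when neighbours were subtracted. The part of the neighbouring genes in this gap was not tested.

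**Figure D4:**
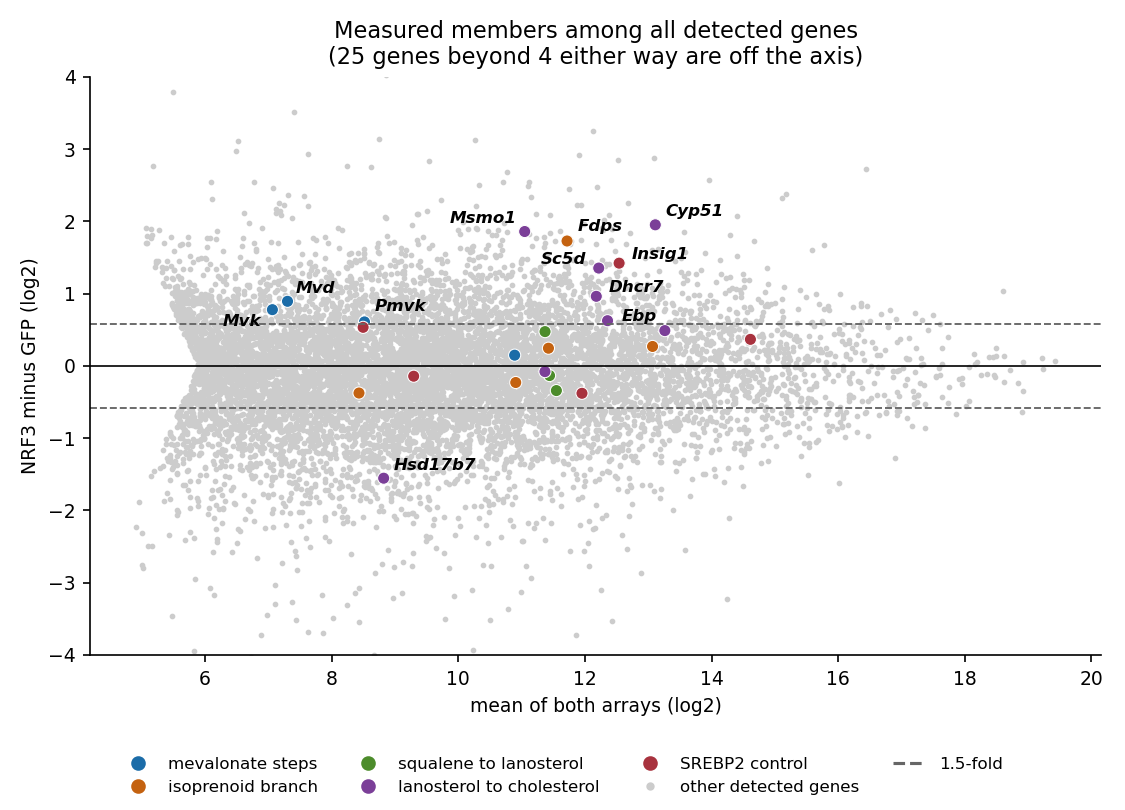
Difference (NRF3 minus GFP, log2) against the mean of both arrays (log2) for all 10162 detected genes in grey and the 25 measured members in colour, with members past the dashed 1.5-fold lines named. The axis ends at 4 either way, beyond which 25 genes lie. Most named members sit at means above 11, where they stand over the bulk of genes of like level, while Mvk and Mvd sit at the dim end.

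Place on the chromosome moved with several values. Of the 25 measured members 3 lie on chromosome 1 and 2 on chromosome 8. The 3 on chromosome 1, Hsd17b7, Lbr and Insig2, all had differences below 0, as did 424 of the 552 detected genes there. Lbr and Insig2, at -0.08 and -0.14, were well within 1.5-fold. The 2 on chromosome 8, Msmo1 and Mvd, were both at least 1.5-fold higher. Of detected genes on chromosome 1, 44.2% were at least 1.5-fold lower, and of those on chromosome 8, 47.5% were as much higher. With both chromosomes left out, 8 of 20 members were at least 1.5-fold higher and 0 lower, with a median of 0.48. Of all detected genes on the other chromosomes 15.8% were that much higher and 23.2% lower.

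Relative to the median of their own blocks, 18 of the 25 members lay above and 7 below. By that measure 11 were at least 1.5-fold higher and 1 lower, with a median of 0.52, where all genes with a block gave 17.7% and 19.2%. Mvk, Pmvk and Mvd no longer passed, and Dhdds, Lss, Srebf2 and Stard4 did. Cyp51, Msmo1, Fdps, Insig1 and Sc5d, the 5 members at least 2-fold higher, stayed so on this measure, between 1.13 and 1.70, and Hsd17b7 stayed at least 2-fold lower, at -1.17.

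**Figure D5:**
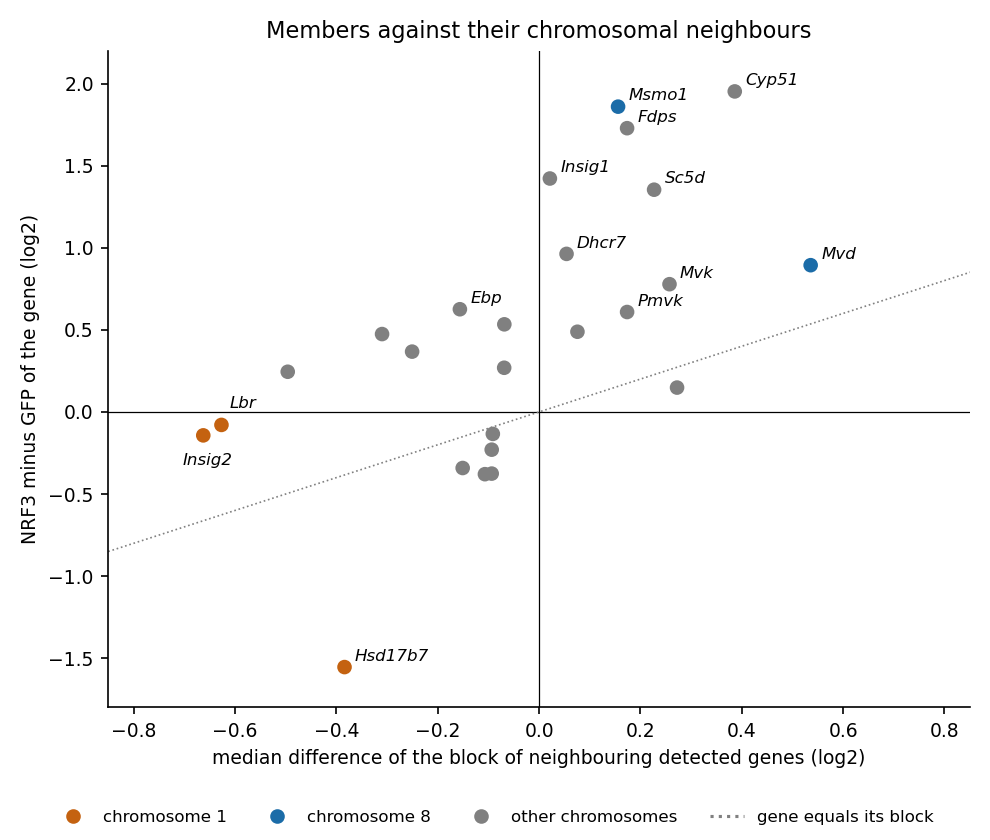
Difference of each measured member (log2, vertical axis) against the median difference of its block of at least 50 neighbouring detected genes (log2, horizontal axis), with chromosome 1 in orange and chromosome 8 in blue. Points on the dotted line would equal their neighbours. Fdps, Cyp51, Msmo1, Insig1 and Sc5d stand far above it, and Hsd17b7 far below.

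Genes around the pathway were read from lists of other proteins that serve it. Of 19 detected genes for SREBP escort, cleavage and INSIG turnover, 7 were at least 1.5-fold higher and 1 lower, or 36.8% and 5.26% against 17.0% and 23.6% of all detected genes, with a median of 0.44. Mbtps1, the first protease that cuts SREBP2 in the Golgi, was highest at 1.66, followed by Faf2, which draws proteins out of the endoplasmic reticulum for degradation, at 1.52. The lowest were Rnf145, a ubiquitin ligase that acts on SCAP, at -0.79, and Erlin1, an endoplasmic reticulum lipid raft protein, at -0.54. Mbtps1 lies on chromosome 8 in a block with a median of 0.82. Without chromosomes 1 and 8 the list had 4 of 16 genes higher, against 15.8% of all detected genes there, and a median of 0.17. Several of these proteins also serve the general degradation of endoplasmic reticulum proteins.

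Genes that carry or store sterols showed no common direction. By the 1.5-fold rule, 4 of the 24 detected were higher and 5 lower, and the median was 0.07. These shares of 16.7% and 20.8% lay near the 17.0% and 23.6% of all detected genes. The oxysterol-binding protein relatives Osbpl6 and Osbpl9 were highest at 0.84 and 0.66. Osbpl3 was lowest at -1.58, from 6.24 to 4.66, both under the upper quartiles of the neg rows, and Tmem97, a sterol-responsive membrane protein, lay at -0.79, from 14.19 to 13.40. Under median centring the counts were 7 higher and 3 lower, where all detected genes gave 21.8% and 18.9%.

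Users of the isoprenoid products were mixed. Of 13 detected prenylation genes, 1 was at least 1.5-fold higher and 4 lower, with a median of -0.39 that became 0.08 relative to the blocks. These are 7.69% and 30.8% of the list, where all detected genes gave 17.0% and 23.6%. Fnta, a farnesyltransferase subunit on chromosome 8, was highest at 0.99 and Pggt1b next at 0.38, while Icmt, which methylates prenylated proteins, lay at -1.51 and Pcyox1, which breaks prenylcysteine down, at -0.98. Of 22 detected ubiquinone and dolichol genes, 6 passed 1.5-fold upward and 2 downward, or 27.3% and 9.09% against the same 17.0% and 23.6%, and the median of 0.06 became -0.04 relative to the blocks.

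The highest of those 22 were Alg5, which charges dolichol phosphate with glucose, at 1.74, and Srd5a3, the polyprenol reductase of dolichol synthesis, at 1.69. The lowest were Coq4 and Coq10a, of ubiquinone synthesis and function, at -1.89 and -0.64. Of 9 detected genes for acetyl-CoA supply and ketone bodies, 0 were at least 1.5-fold higher and 1 was lower, or 11.1%, against 17.0% and 23.6% of all detected genes, with a median of 0.02. Under median centring, quantile normalization and block subtraction 1 was higher. Slc25a1, the mitochondrial citrate carrier, lay at 0.50 and Aacs, acetoacetyl-CoA synthetase, at 0.45, while Bdh1, a ketone body dehydrogenase, lay at -2.11 and Acss2, acetyl-CoA synthetase, at -0.34.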

How the data were processed

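Total RNA from 2 samples, 1 per group, was hybridised to single-colour Affymetrix arrays after labelling of 100 ng RNA, per the labels' protocols. The authors deposited 1 log2 intensity per probe set and array, made with Affymetrix Expression Console and RMA, per the submitters' processing notes. The software version is not given in the sources used here, nor are its settings. With 1 array a group, the number of arrays limits precision.

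Of 28846 rows, 19572 carried 1 gene symbol in the platform annotation, none several, and all matched RefSeq (GRCm38.p6) by gene number. The probe set with the highest mean stood for each gene. Blocks were 192 runs of at least 50 detected neighbours on a chromosome. Lowess used a span of 0.3. Scripts used Python 3.11.15, pandas 2.3.3 and statsmodels 0.14.6 and were tested on simulated data. Without replicates no single difference could be tested, and no test across genes was run, so 1.5-fold and 2-fold are rules of size.

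The members and lists were chosen with earlier results of these data known. All members, the 2 highest and 2 lowest detected genes of each other list, and Nfe2l3 are named. Alternatives were median centring, quantile normalization, trend subtraction, probe set means, 3 other floors, block subtraction, omission of chromosomes 1 and 8, and 2-fold. The promoter search with 1 mismatch was added later.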

Additional observations from a re-analysis of the deposited data

How the results depend on the processing

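With 1 array per group no replicate could be left out and no test run, so the limits are those of the size rule and the scaling. No paired analysis was possible because each group had 1 array. The member median of 0.47 ranged over the alternatives from 0.37 to 0.60, the latter with median centring, which put it past 1.5-fold. The count of higher members was 10 of 25. Under the alternatives at 1.5-fold it ranged from 7 of 19, with a floor at the 75th percentile, to 13 of 25 with median centring. Under these 2 settings 17.8% and 21.8% of all genes were higher. At 2-fold the count was 5 of 25, where all detected genes gave 6.75%. The 1 lower member became 0 without chromosomes 1 and 8, because Hsd17b7 lies on chromosome 1. The mevalonate median of 0.69 fell short of 1.5-fold at 0.15 under a floor raised to 9.51, the 75th percentile, which leaves Hmgcs1 alone, at 0.38 with both values above the neg row quartiles, which leaves 2 genes, and at 0.40 relative to the blocks. The SREBP2 control median of 0.37 became 0.60 relative to the blocks. Under the 3 other scalings 24 of 25 members kept their sign, all but Lbr, and 22 kept their side of 1.5-fold, all but Lss, Nsdhl and Stard4. The medians of the other lists on sterol transport, prenylation, ubiquinone and dolichol, and acetyl-CoA changed sign under at least 1 alternative. A value near the neg rows is limited by background.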

Other observations

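Of 10 genes for sterol hydroxylation and sulfation, 9 had a named probe set and 1 was detected. That gene was Hsd3b7, an enzyme of bile acid synthesis that acts on hydroxylated sterols, with 6.86 in GFP cells and 9.63 in NRF3 cells. The GFP value lay under the upper quartile of the neg rows, 7.52, so the difference of 2.76 depends in part on background. The other 8, among them Ch25h, which makes an oxysterol that blocks SREBP2 processing, lay under the floor of 5.89 on both arrays.

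Mvk and its neighbour Mmab, a cobalamin enzyme gene, are transcribed in opposite directions from starts with 241 bases between them in RefSeq (GRCm38.p6, chromosome 5). Mvk differed by 0.78, with both values near the neg row levels, while Mmab read 10.34 in GFP cells and 10.02 in NRF3 cells, a difference of -0.32. Mmab was chosen as an example after its values were seen.

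Erg28, which tethers the enzymes that demethylate the sterol ring, read 13.65 in GFP cells and 13.54 in NRF3 cells. Its difference of -0.11 lay between those of Msmo1, at 1.86, and Hsd17b7, at -1.55, and it too was singled out after its value was seen.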
